A study of Homo sapiens with 4 samples.

Results

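The baseline transcriptome described here is that of KYSE150 control cells, taken from the 2 negative-control libraries among the 4 libraries of the series. KYSE150 is an established human cell line from an esophageal squamous cell carcinoma. Members were chosen by the sample titles, and every one of the 17825 listed genes entered the description by its mean level over the 2 libraries. The other 2 libraries of the series came from cells given an siRNA against CEBPG, and their levels were not used.

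Per the labels, the control cells are KYSE150 with the genotype entry "Negative control", described as squamous cells of the esophagus and grown in RPMI1640 with 10% FBS. Total RNA was extracted with Trizol. The sources used here give neither the sequence of the negative control nor the time of harvest. No label says that the 2 libraries came from separate cultures, so the spread between them may be technical. An effect of transfection cannot be told apart from the baseline, since untransfected cells were not analysed here. The design text calls the profiles retinal, a word that no source used here explains, so retina markers were included among the lists below.

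Squamous epithelium is a layered tissue. Its basal cells rest on a laminin-rich basement membrane, divide, and are held by keratins 5 and 14 and by desmosomes and hemidesmosomes. Cells that leave the basal layer change keratins and build a cornified envelope under factors such as KLF4, GRHL3 and ZNF750, whereas TP63 maintains the basal program. Squamous carcinomas of the esophagus often keep TP63 and gain EGFR or CCND1, and many raise amino acid uptake.

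Levels are given as RPKM, reads per kilobase of gene length, scaled to the counted reads of the library, with the value of replicate 1 first and that of replicate 2 after it. A gene's percentile is the share of the 17825 listed genes ranked below it. The libraries held 15536501 and 15515901 counts, and at the median gene length 1 count was worth 0.0145 RPKM. Of the listed genes, 11722 (65.8%) had a mean of at least 1 RPKM, 4892 (27.4%) at least 10 RPKM and 333 (1.87%) at least 100 RPKM. Of the 13097 annotated as protein-coding, 78.0% had at least 1 RPKM and 36.1% at least 10 RPKM, with a median of 5.96 RPKM. Counts of list members are to be read beside these shares, the protein-coding ones for lists of protein-coding genes. The median over all listed genes was 3.17 RPKM, with quartiles at 0.480 and 11.4 RPKM. No condition is compared here, so differences between genes are set against the spread between the 2 libraries. This spread shows whether an order of genes repeats in both libraries. It does not cover errors that both libraries share, such as the gene length used. Among genes of at least 1 RPKM the SD over genes of the log2 ratio of the libraries was 0.220.

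All 7 markers of squamous carcinoma were above 1 RPKM, but they lay at very different levels. TP63, the master factor of basal squamous cells, measured 8.73 and 8.87 RPKM and stood at the 70.0 percentile. KRT5, the basal type II keratin, measured 111 RPKM in each library and stood at the 98.4 percentile. Its usual partner KRT14 measured only 3.92 and 4.26 RPKM, the 54.5 percentile. KRT17, a keratin of activated and malignant squamous cells, measured 3.98 and 4.27 RPKM. The KRT14 and KRT17 ranges overlapped. Both genes lay little above the median listed gene and below the median protein-coding gene, at 5.96 RPKM. In bulk RNA a low level in every cell and a higher level in a few cells cannot be told apart. EGFR, the epidermal growth factor receptor, measured 43.2 and 41.4 RPKM, and CCND1, which encodes cyclin D1, measured 133 and 130.3 RPKM. SLC7A5, the light chain of the large neutral amino acid transporter, measured 1019.9 and 1043 RPKM and was the 24th most abundant gene. Between the libraries these 7 genes differed by log2 ratios of -0.06 to 0.12. CEBPG itself, a basic leucine zipper partner of C/EBP and ATF4 proteins, measured 11.6 and 11 RPKM, the 74.9 percentile.

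**Figure D1:**
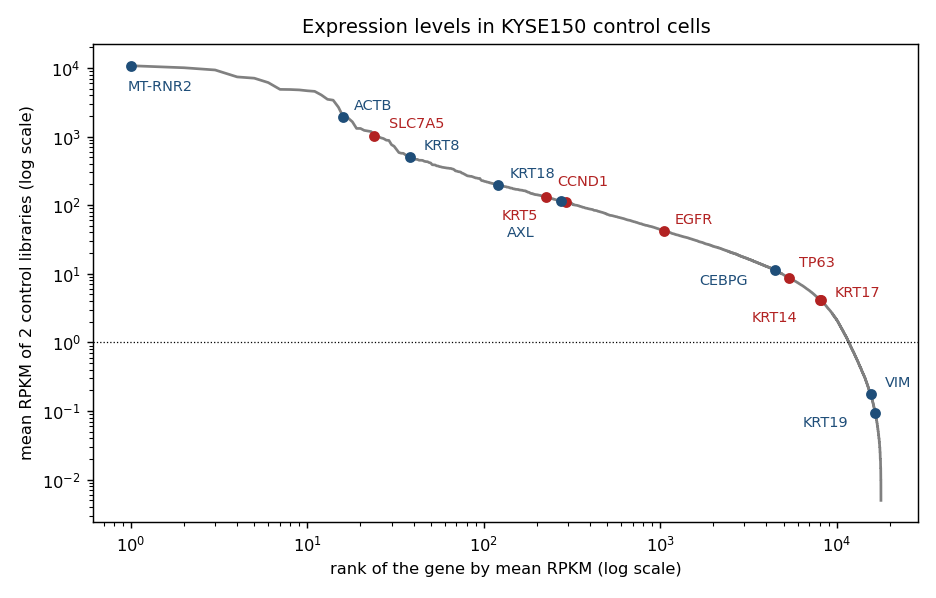
Mean RPKM of the 2 control libraries (log scale) against the rank of each listed gene (log scale), with the 7 squamous markers in red, other genes named in the text in blue and a dotted line at 1 RPKM. The markers run from SLC7A5 at rank 24 to KRT14 at rank 8118.

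The most abundant transcripts were mitochondrial. The 37 mitochondrially encoded genes took 8.66% of counts in replicate 1 (exact Clopper-Pearson 95% interval 8.65% to 8.68%) and 8.74% in replicate 2 (8.73% to 8.75%), an interval that covers counting error only. The large mitochondrial rRNA gene MT-RNR2 led with 10924 and 10577 RPKM, before MT-ND4, a complex I subunit, with 9826 and 10255 RPKM. The lowest of the 13 protein-coding mitochondrial genes was MT-ND2, another complex I subunit, with 2541 and 2806 RPKM. The nuclear copies MTATP6P1, MTND4P12 and MTRNR2L12 also ranked high, with mean levels of 1865, 876 and 759 RPKM. They are nearly identical to the mitochondrial genes they derive from, and how reads were shared between them is not known.

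Among nuclear genes other than these copies of mitochondrial genes, ACTB, cytoplasmic beta-actin, was highest with 1884 and 1946 RPKM. GAPDH, the glycolytic dehydrogenase, measured 1300.1 and 1324 RPKM, and FTL, the ferritin light chain, measured 1159 and 1200.2 RPKM. SLC7A5 came next, ahead of EEF2, the translocase of translation elongation, with 996 and 1025 RPKM. A membrane transporter thus stood between ferritin and an elongation factor. MT2A, a metal-binding metallothionein, measured 916 and 1004 RPKM. H19, an imprinted fetal noncoding RNA, measured 934 RPKM in each library, and TMSB10, an actin-monomer binding peptide, 893 and 876 RPKM. The 10 genes with the most counts, which were mitochondrial genes with ACTB and SLC7A5 among them, held 8.13% and 8.21% of counts, while 1053 genes held 50% of them. Protein-coding nuclear genes held 89.0% and 88.9% of counts, and long noncoding genes 0.786% and 0.784%.

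Promoters were described with RefSeq windows of GRCh38.p14 that run from 250 bases before to 50 after each gene's start. They were matched by symbol to 10644 listed protein-coding genes. The letters TATAAA, searched on the gene's strand from 40 to 20 bases before the start, stood in 5.83% of the 240 promoters of genes at or above 100 RPKM. The share was 1.42% for genes of 10 to 100 RPKM, 1.0% for genes of 1 to 10 RPKM, 3.81% for genes under 1 RPKM, and 2.48% of all 27305 promoters in the table. The highest and the lowest genes thus held it more often than the middle ones, in counts of 14, 53, 45 and 83 promoters from the highest class down. A CpG ratio of at least 0.6, observed over the value that base composition gives, was found in 90.4% of promoters at or above 100 RPKM. For this ratio the shares were 90.6% from 10 to 100 RPKM, 83.8% from 1 to 10 RPKM and 53.7% under 1 RPKM. The windows of 4 abundant genes are shown because their matches lie at nearly the same distance from the start, 29 or 30 bases. Other matches lay 27 bases from the start in SLC25A5 and RPLP0 and 31 bases in H2AFX. In the 4 windows below TATAAA is in capitals.
EEF2 (chr19:3985476-3985505, minus strand): ccggcgtccgccTATAAAaagctgagtgtt
MT2A (chr16:56608543-56608572, plus strand): gctctttctagcTATAAAcactgcttgccg
TXN (chr9:110256520-110256549, minus strand): ggcgtgccagttTATAAAgggagagagcaa
CALR (chr19:12938567-12938596, plus strand): gaggcgggtgggTATAAAagtgcaaggcgg
These letters describe the window and are not evidence of a bound factor.

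Of 22 transcription factors of squamous cells on the list, 21 were listed and 15 were at or above 1 RPKM. This share of the 21 was below the 78.0% of protein-coding genes. Their median was 8.38 RPKM, against 3.17 RPKM over all listed genes and 5.96 RPKM over protein-coding genes. SOX15, an SRY-box factor of stratified epithelia, was highest with 92.3 and 99.9 RPKM. KLF5, a Krüppel-like factor of proliferating epithelial cells, followed with 43.4 and 42.6 RPKM. TFAP2A, an AP-2 factor of the surface ectoderm, measured 20 and 20.8 RPKM, and BNC1, basonuclin of basal keratinocytes, measured 19.1 and 18 RPKM. TP63 stood lower in this order, below PITX1, GRHL2 and ELF3 at mean levels of 12.2, 11.9 and 11.1 RPKM. Factors tied to terminal differentiation differed in level, and those named here were chosen after their values were seen. KLF4 measured 7.54 and 7.74 RPKM, close to TP63, whereas OVOL1 measured 0.740 and 0.60 RPKM and GRHL3 0.410 and 0.380 RPKM. ZNF750, which acts downstream of TP63 in differentiating keratinocytes, measured 0.10 and 0.0900 RPKM from 6 and 5 counts. TP73, the TP63 paralog, measured 0.270 and 0.320 RPKM. In this order only 2 of 20 pairs of neighbours had overlapping libraries. SOX2 was not analysed here.

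Keratins, the intermediate filament proteins whose pairs mark the kind and layer of an epithelium, were led by the pair of simple epithelia. KRT8 measured 497 and 512 RPKM and its partner KRT18 measured 201 and 191 RPKM. Together they made up 74.2% and 74.3% of the summed RPKM of the 20 listed keratin genes. KRT5 came next, and after it KRT80, a keratin associated with desmosomes in differentiating cells, with 83.5 and 83.0 RPKM. KRT10, the type I keratin of suprabasal epidermis, measured 15.9 and 15.4 RPKM, and KRT15, a basal keratin, measured 12.1 and 12.8 RPKM. Only these 6 keratins reached 10 RPKM, and 12 reached 1 RPKM.

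Partners were not matched in level. KRT5 exceeded KRT14 by 28.3 and 26.1 times in RPKM, and KRT8 exceeded KRT18 by 2.48 and 2.68 times. The keratins of hyperproliferative squamous cells were low, with KRT6A at 3.80 and 3.59 RPKM and KRT16 at 0.880 and 0.860 RPKM. The mucosal keratins of esophageal suprabasal cells were also low, with KRT4 at 2.21 and 2.16 RPKM and KRT13 at 0.200 RPKM in each library. KRT7, a simple keratin, measured 1.96 and 2.22 RPKM. KRT19, a further simple keratin, measured 0.0800 and 0.110 RPKM from 3 and 4 counts, so the high level of KRT8 and KRT18 did not extend to the whole simple group. KRT8 and KRT18 have many processed copies, and 25 pseudogenes named for them were listed, none above 3.50 RPKM. KRT14, KRT16 and KRT17 are close paralogs, and no source used here says how the authors' counting split shared reads. Among the 5 keratins at or above 1 RPKM with a promoter in the table, TATAAA stood in 2, KRT10 and KRT76.

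**Figure D2:**
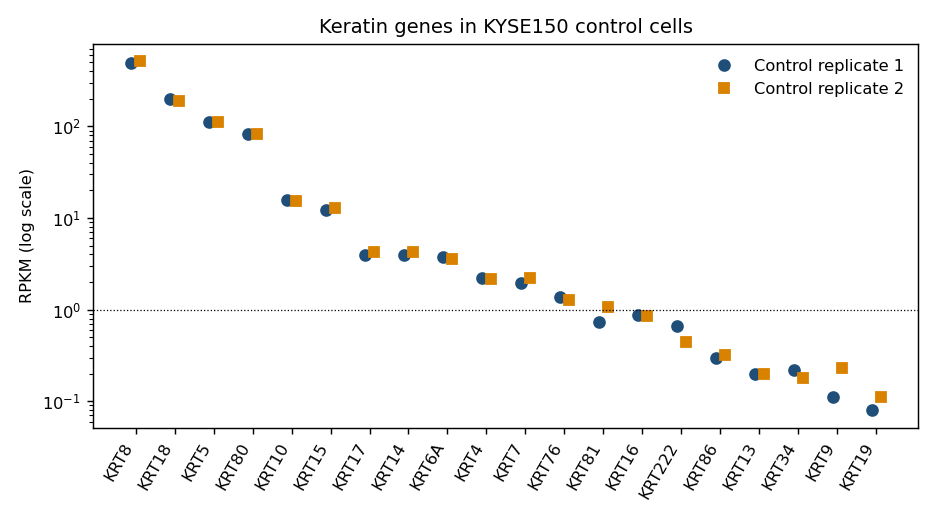
RPKM (log scale) of the 20 listed keratin genes in each control library, ordered by mean level, with circles for replicate 1, squares for replicate 2 and a dotted line at 1 RPKM. KRT8 and KRT18 lead, KRT5 and KRT80 follow, and the values of the 2 libraries separate visibly only below about 1 RPKM.

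Nearly all listed cell adhesion genes were detected above threshold. All 16 listed genes of desmosomes and adherens junctions exceeded 1 RPKM, 13 exceeded 10 RPKM, and their median was 36.8 RPKM against 3.17 RPKM over all listed genes. CDH1, epithelial cadherin, measured 128 and 124 RPKM, and CDH3, the placental cadherin of basal cells, measured 78.8 and 80.0 RPKM. PKP3, the plakophilin found in all layers of stratified epithelia, measured 52.9 and 54.1 RPKM, and CTNNA1, alpha-catenin, measured 50.9 and 50.7 RPKM. The desmosomal cadherins were uneven. DSG2, the desmoglein shared with simple epithelia, measured 39.7 and 37.4 RPKM, against 6.51 and 6.67 RPKM for DSG3, the desmoglein of basal stratified cells. DSC3 measured 17.3 RPKM in each library and DSC2 8.40 and 8.08 RPKM. DSP, the plaque protein desmoplakin that ties cadherins to keratins, measured 36.4 and 33.8 RPKM, and PKP1 was lowest with 4.95 and 4.74 RPKM.

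At the base of the cell, 19 of 21 hemidesmosome, integrin and laminin genes were at or above 1 RPKM, with a median of 19.8 RPKM. LAMB3, the beta chain of epithelial laminin, led with 86.1 and 89.4 RPKM. Its partner chain LAMA3 was lower, at 10.5 and 9.85 RPKM. PLEC, the plakin that links keratins to integrins, measured 73.2 and 72.4 RPKM, ITGB1 59.0 and 57.9 RPKM and LAMA5 56.4 and 55.5 RPKM. The hemidesmosome integrin chains ITGB4 and ITGA6 measured 38.0 and 39.0 RPKM and 27.4 and 25.4 RPKM. COL17A1, the transmembrane collagen of hemidesmosomes, measured 10.2 and 10.4 RPKM. The wound integrin ITGB6 measured 0.0800 RPKM in each library. Of 12 listed tight junction genes, 11 reached 1 RPKM, led by EPCAM at 77.2 and 77.6 RPKM and CLDN4 at 58.5 and 59.2 RPKM. The scaffold gene TJP1 measured 37.6 and 36.5 RPKM.

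The genes of squamous differentiation were represented by 11 listed genes of 31, with a median of 8.71 RPKM. KLK5, a serine protease of epithelial shedding, was highest with 97.8 and 99.0 RPKM. PPL, the envelope plakin periplakin, measured 32.4 and 32.5 RPKM, and EMP1, an epithelial membrane protein, measured 20.5 and 20.6 RPKM. FLG, filaggrin of the granular layer, measured 11.3 and 10.7 RPKM from 2245 and 2117 counts. TGM1, the transglutaminase that crosslinks the envelope, measured only 2.65 and 2.95 RPKM, and PI3, an envelope-bound protease inhibitor, measured 1.0 and 1.12 RPKM. The envelope precursors IVL, LOR and the SPRR genes were not analysed here. Differentiation genes were therefore present in part, and neighbours in their order were apart in all 10 pairs.

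Of 33 receptor tyrosine kinases on the list, 22 were listed, 17 at or above 1 RPKM and 8 at or above 10 RPKM. By the deposited RPKM, AXL, a receptor for GAS6, was highest with 114 and 117 RPKM and exceeded EGFR by 2.64 and 2.82 times. DDR1, a collagen receptor, measured 83.7 and 86.1 RPKM, and MET, the hepatocyte growth factor receptor, measured 41.0 and 39.1 RPKM. DDR1 had more counts, 11867 and 12198, than AXL with 9139 and 9323. The deposited level of DDR1 implies a length of 9127 bases, against 4148 bases for its longest transcript. For AXL these lengths were 5157 and 4737 bases, so the order of AXL and DDR1 depends on the length used. EGFR and MET lay close together, yet the 41.4 RPKM of EGFR in replicate 2 was still above the 41.0 RPKM of MET in replicate 1. EPHA2 measured 30.3 and 30.5 RPKM. Within the EGF receptor family, ERBB3 measured 13.7 and 13.6 RPKM and ERBB2 8.45 and 8.12 RPKM. FGFR2, the epithelial fibroblast growth factor receptor, measured 12.5 RPKM in each library, whereas FGFR1 measured 0.0600 RPKM in each. Among EGF-type ligands, TGFA led with 18.4 and 18 RPKM, ahead of NRG1 with 4.72 and 4.25 RPKM and HBEGF with 2.60 and 3.07 RPKM. AREG and EREG were not analysed here.

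Downstream of these receptors, 26 of 28 listed genes of the PI3K and AKT core reached 1 RPKM, but their median was 6.76 RPKM and only 6 reached 10 RPKM. EIF4EBP1, the translation repressor that mTOR phosphorylates, was highest with 139.9 and 142 RPKM. RHEB, the GTPase that activates mTOR, measured 33.7 RPKM in each library, and MLST8, an mTOR complex subunit, measured 22.2 and 22.0 RPKM. The catalytic subunit genes measured 11.5 and 11.2 RPKM for PIK3CB and 4.96 and 5.03 RPKM for PIK3CA. The kinases AKT2 and AKT1 had mean levels of 12.3 and 7.87 RPKM. The regulatory subunit gene PIK3R2 had 1 and 4 counts and PIK3R1 a mean of 1.81 RPKM. In 10 of 27 pairs of neighbours in this order the libraries overlapped.

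Of 21 RAS and ERK genes, 19 were at or above 1 RPKM, and NRAS was highest by the deposited RPKM. NRAS measured 43.5 and 41.2 RPKM and HRAS 36.6 and 37.6 RPKM. The kinase genes MAP2K2 and ARAF measured 32.1 and 34.0 RPKM and 31.7 and 32.9 RPKM, and BRAF only 3.14 and 3.09 RPKM. The deposited level of MAP2K2 implies a length of 5239 bases, against 1734 bases for its longest transcript. For NRAS these lengths were 4451 and 4449 bases, so the order of NRAS and MAP2K2 depends on the length used. The feedback genes induced by ERK were uneven. DUSP6, a phosphatase of ERK, measured 0.720 and 0.610 RPKM and SPRY4 0.900 and 0.980 RPKM, while DUSP5 and DUSP4 had mean levels of 10.0 and 8.41 RPKM.

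The cell division genes on the lists were detected throughout, beside 78.0% of all protein-coding genes at or above 1 RPKM. All 26 replication and mitosis genes were at or above 1 RPKM and 25 were at or above 10 RPKM, with a median of 53.8 RPKM against 3.17 RPKM over all listed genes. MCM3, a helicase subunit of replication origins, led with 130.2 and 127 RPKM, followed by TPX2, a spindle assembly factor, with 125 and 122 RPKM. CDC20, the activator of the anaphase-promoting complex, measured 110.2 and 117 RPKM, and PCNA, the polymerase clamp, 104 and 109 RPKM. BIRC5, survivin, was the lowest with 6.41 and 6.25 RPKM. All 18 listed G1 cyclins, kinases, inhibitors and RB genes reached 1 RPKM. Behind CCND1 came CCND2 with 42.9 and 43.9 RPKM, the kinase gene CDK4 with 42.4 and 43.8 RPKM and CDKN2A, which encodes inhibitors of CDK4 and MDM2, with 37.7 and 40.8 RPKM. CCND2 and CDK4 could not be told apart by the deposited RPKM, since their ranges overlapped. RB1, the retinoblastoma repressor, measured 13.9 RPKM in each library, and CCNE1 was lowest of this list with 2.25 and 2.18 RPKM. MYC measured 8.70 and 9.21 RPKM, and its partner MAX 11.5 and 12.2 RPKM.

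The promoters of replication and mitosis genes shared letters that the level did not use. The pentamer CCAAT, searched on both strands from 150 to 40 bases before the start, stood in 15 of the 20 promoters of this list in the table (75%), against 20.7% of all 27305 promoters. It is the core of the element that the factor NF-Y reads. In promoters of protein-coding genes at or above 100 RPKM the share was 27.9%. The windows of 6 genes are shown because they carry the match in either orientation, with CCAAT or its reverse complement ATTGG in capitals.
CDC20 (chr1:43358869-43358898, plus strand): tcgccggagaggCCAATgggctagggcaac
CCNB1 (chr5:69167051-69167080, plus strand): gaccggcagccgCCAATgggaagggagtga
RRM2 (chr2:10122604-10122633, plus strand): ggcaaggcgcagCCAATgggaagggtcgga
CCNB2 (chr15:59105014-59105043, plus strand): aagaaaattcagCCAATgagagtgcgagag
TOP2A (chr17:40417972-40418001, minus strand): aggcaagctacgATTGGttcttctggacgg
BUB1 (chr2:110678113-110678142, minus strand): ATTGGccaaccttctgccgccgccaCCAAT
CCNB1 and RRM2, a mitotic cyclin and a ribonucleotide reductase subunit, had mean levels of 94.3 and 92.7 RPKM, and BUB1, a spindle checkpoint kinase, 17.6 RPKM.

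Amino acid transport was dominated by SLC7A5. Of 19 listed transporter genes, 14 reached 1 RPKM and their median was 6.11 RPKM. SLC3A2, the heavy chain that carries SLC7A5 to the membrane, measured 172 and 181 RPKM, and SLC7A5 exceeded it by 5.92 and 5.76 times. SLC1A5, a glutamine transporter, measured 78.3 and 77.5 RPKM, and SLC38A5, another glutamine transporter, 41.3 and 43.5 RPKM. SLC7A1, for cationic amino acids, measured 30.6 and 28.5 RPKM. SLC7A11, the cystine transporter, measured 3.51 and 3.22 RPKM, and SLC7A8, the other light chain for large neutral amino acids, 0.0300 and 0.0200 RPKM from 3 and 2 counts. SLC43A1 also lay near 0, with 0.0700 and 0.110 RPKM, and SLC43A2 measured 2.01 and 2.12 RPKM. Of these 4 transporters of large neutral amino acids, SLC7A5 was the only gene above 10 RPKM.

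Serine and folate enzymes, a list added after values were seen, had 9 of 10 members at or above 1 RPKM. PSAT1, the transaminase of serine synthesis, measured 74.7 and 71.8 RPKM, while PHGDH, the first enzyme of that path, measured 6.12 and 6.38 RPKM. Mitochondrial SHMT2 measured 38.6 and 41.5 RPKM, MTHFD1 38.8 and 37.7 RPKM and ASNS, asparagine synthetase, 27.9 and 26.2 RPKM.

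Glycolysis genes were abundant, with 22 of 24 listed at or above 1 RPKM, 8 at or above 100 RPKM and a median of 53.7 RPKM. By the deposited RPKM, ENO1, enolase, followed GAPDH with 379 and 392 RPKM. Next were LDHA, lactate dehydrogenase A, with 329.7 and 326 RPKM, and ALDOA, aldolase A, with 299 and 313 RPKM. In that order their implied lengths were 3960.2, 6214 and 6156 bases, against 2345, 2416 and 1672 bases for the longest transcripts. The order of ENO1, LDHA and ALDOA thus depends on the length used. LDHA exceeded LDHB by 1.59 and 1.51 times. The ubiquitous ENO1 exceeded the neuronal ENO2 by 46.6 and 47.5 times. The glucose transporter SLC2A1 measured 62.4 and 65.2 RPKM and the hexokinase genes HK1 and HK2 40.1 and 40.9 RPKM and 21.8 and 22.0 RPKM.

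Among NRF2 and redox genes, 20 of 22 listed were at or above 1 RPKM, with a median of 49.5 RPKM. After FTL stood the ferritin heavy chain FTH1 with 419 and 443 RPKM, thioredoxin TXN with 387 and 389.5 RPKM and the glutathione transferase GSTP1 with 348 and 361 RPKM. NQO1, a quinone reductase regulated by NRF2, measured 109.9 and 117 RPKM. NFE2L2, which encodes NRF2, measured 27.8 and 28.9 RPKM, and its inhibitor KEAP1 24.9 and 27.4 RPKM. In contrast to these, AKR1B10 measured 0.550 and 0.630 RPKM and GPX2 0.410 and 0.230 RPKM. Neighbours in this order overlapped in 0 of 21 pairs.

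Metallothioneins, small cysteine-rich proteins that bind zinc and copper, had 5 of 11 list members listed, all above 1 RPKM. MT1E measured 421 and 414 RPKM, so that MT2A exceeded it by 2.18 and 2.43 times. MT1X measured 21.8 and 21.4 RPKM, MT1F 13.1 and 14.2 RPKM and MT1G 3.09 and 3.61 RPKM. From MT2A down to MT1G all 4 pairs of neighbours were apart. The genes are close in sequence, and shared reads could move these levels. MT2A was also among the genes whose libraries differed most for their counts, with 18487 and 20257 counts. The letters TGCACNC and TGCGCNC, versions of the metal response element that MTF1 reads, were searched on both strands. The MT2A promoter held 8 matches, a number that 6 of 27305 promoters (0.0220%) reached. Matches of TGCACNC stood in 11.9% of all promoters and matches of TGCGCNC in 20%, so a single match is common. The window below, shown because it holds 2 of the MT2A matches, has them in capitals, the first as the reverse complement.
MT2A (chr16:56608408-56608437, plus strand): cgcggcccGTGTGCAgagccgggTGCGCCC

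Transcription factors of the stress response were led by ATF4, the factor of the amino acid response, with 77.6 and 84.0 RPKM. CEBPB measured 54.2 and 61.3 RPKM, CEBPD 27.1 and 31.8 RPKM and ATF3 19.7 and 19.6 RPKM. CEBPG stood below these among the 10 listed C/EBP and ATF4 genes, and CEBPB exceeded it by 4.69 and 5.59 times. ATF4 exceeded CEBPG by 6.72 and 7.65 times. CEBPA, the C/EBP factor of differentiated cells, measured 0.390 and 0.780 RPKM. CEBPB, CEBPD and ATF4 were each higher in replicate 2, by log2 ratios of 0.18, 0.23 and 0.11. The SD of this ratio was 0.084 over genes of 10 to 100 RPKM, so the ATF4 difference lay little beyond it.

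The AP-1 genes followed a similar split between members. FOSL1, the FOS-type factor of invasive epithelial cells, measured 90.8 and 95.8 RPKM, against 0.910 and 0.740 RPKM for FOS, a ratio of 99.7 and 129. JUNB measured 68.4 and 74.0 RPKM, JUND 59.5 and 68.4 RPKM and JUN 18.2 and 18.9 RPKM. Of the survival genes of the BCL2 family, MCL1 measured 78.8 and 78.5 RPKM and BCL2L1 44.0 and 45.7 RPKM, whereas BCL2 measured 1.15 and 0.900 RPKM.

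Cytoskeletal genes made up many of the highest levels. Of 23 listed actin cytoskeleton genes, 20 were at or above 10 RPKM and the median was 86.8 RPKM. After ACTB and TMSB10 came ACTG1, gamma-actin, with 529 and 551 RPKM and PFN1, profilin, with 425 and 447 RPKM. The smooth muscle genes ACTA2 and TPM2 measured 0.210 and 0.170 RPKM and 0.250 and 0.460 RPKM. Among S100 and annexin genes, S100A11 measured 458 and 469.9 RPKM, S100A10 346 and 340.5 RPKM, S100A16 169 and 178 RPKM and ANXA1 115 and 109.9 RPKM. S100A2, a gene of basal squamous cells, measured 42.7 and 43.3 RPKM. S100A9, which rises with inflammation in squamous epithelium, measured 0.890 and 1.67 RPKM, and S100A4, a gene of mesenchymal cells, 0.440 and 0.250 RPKM.

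All 79 ribosomal protein genes were listed, 78 at or above 1 RPKM, with a median of 138 RPKM. RPL8 measured 635 and 659 RPKM, RPS21 with 483 and 495 RPKM and RPS12 with 470.4 and 459.9 RPKM. Most of their proteins are built into the ribosome in equal numbers, yet the deposited levels ran over a wide range. RPL21 measured 3.83 and 3.58 RPKM and RPL7 4.54 and 5.19 RPKM. A total of 13 genes lay under 20 RPKM.

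The low members tended to have many processed copies in the genome. Across the 79 genes the mean RPKM had a Spearman rho of -0.41 with the number of annotated pseudogenes named for the gene, given as a description, since genes of a family are not independent. The median was 148 RPKM for 27 genes with 0 to 4 such pseudogenes and 37.7 RPKM for 16 genes with 20 or more, of which 7 lay under 20 RPKM. Beside RPL10 at 30.6 and 31.4 RPKM, its pseudogene RPL10P3 was listed at 309.8 and 304 RPKM, a ratio of 10.1 and 9.68. Their counts were close, 2292 and 2355 for RPL10 and 2254 and 2211 for RPL10P3. The ratio of RPKM thus came from the implied lengths, 4827 bases for RPL10 and 468 bases for RPL10P3. No source used here says how the authors' counting placed reads that fit several copies, so levels of these genes are uncertain and the part of shared reads was not tested. Low values were also found for EIF4A1, a translation helicase gene, with 1.0 and 1.10 RPKM, and for the elongation factor EEF1A1 the level was 85.0 and 91.0 RPKM, far below EEF2. Both genes have processed copies in the genome.

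**Figure D3:**
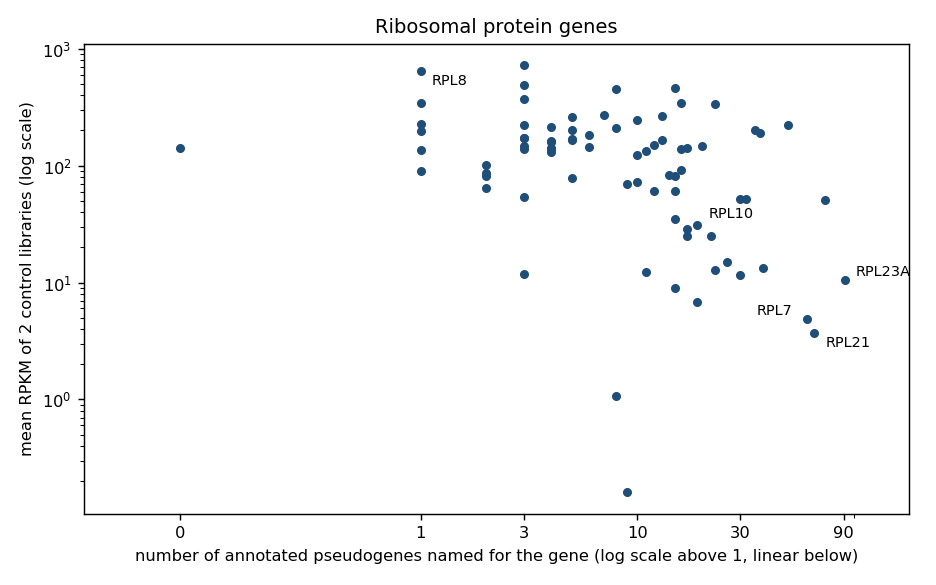
Mean RPKM of the 2 control libraries (log scale) of the 79 ribosomal protein genes against the number of annotated pseudogenes named for each (log scale above 1, linear below). Genes with 20 or more pseudogenes had a median of 37.7 RPKM, and RPL21 at 3.71 RPKM and RPL7 at 4.87 RPKM lie far below it.

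Ribosomal protein transcripts are known to start with a run of pyrimidines that couples their translation to mTOR. The letters CTTTT, searched on the gene's strand from 5 bases before to 15 after the annotated start, stood in 22.2% of 63 ribosomal promoters in the table, against 2.2% of all 27305. For genes at or above 100 RPKM of any kind the share was 5.83%. The windows of 4 genes are shown because the match lies at or within 2 bases of the start, with CTTTT in capitals.
RPL13A (chr19:49487598-49487627, plus strand): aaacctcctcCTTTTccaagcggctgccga
RPL27A (chr11:8682782-8682811, plus strand): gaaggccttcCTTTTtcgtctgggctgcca
RPS16 (chr19:39435930-39435959, minus strand): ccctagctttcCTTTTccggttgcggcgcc
RPS6 (chr9:19380217-19380246, minus strand): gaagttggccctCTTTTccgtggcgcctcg
These genes had mean levels of 245, 81.1, 224 and 266 RPKM in that order.

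Of 16 listed genes tied to mesenchymal transition (19 on the list), 10 were at or above 1 RPKM. This share was near the 65.8% of all listed genes and below the 78.0% of protein-coding genes. The listed members were led by the growth factor gene TGFB1 with 55.6 and 58.9 RPKM and the hyaluronan receptor CD44 with 51.8 and 51.2 RPKM. The receptor TGFBR2 followed with 44.7 and 44.1 RPKM and TGFB2 with 29.3 and 27.4 RPKM. SNAI2, a repressor present in basal epithelial cells, measured 17.0 and 13.3 RPKM, and TWIST1 4.43 and 5.16 RPKM. VIM, the intermediate filament of mesenchymal cells, measured 0.140 and 0.210 RPKM from 11 and 16 counts, and ZEB1, a repressor of CDH1, 0.200 and 0.230 RPKM. CDH1 thus stood at the 98.7 percentile and VIM at the 12.6 percentile.

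Among proteases and their inhibitors, F3, tissue factor that starts coagulation, was highest with 579 and 563 RPKM. CTSD, a lysosomal protease, measured 92.3 and 99.7 RPKM, TIMP1 87.5 and 89.1 RPKM and TIMP2 42.6 and 44.9 RPKM. The plasminogen activator PLAU measured 34.6 and 33.7 RPKM, its receptor PLAUR 22.3 and 24.4 RPKM and the membrane protease MMP14 35.1 and 33.4 RPKM. MMP13 had 4 and 1 counts. All 15 genes of the YAP and TEAD list exceeded 1 RPKM. The YAP target CYR61 measured 170.1 and 168 RPKM, whereas CTGF, another target, measured 2.83 and 3.06 RPKM. TEAD1 led the DNA-binding partners with 40.8 and 38.8 RPKM, and YAP1 measured 16.5 and 16.2 RPKM. In the Notch list, the feedback inhibitor NRARP measured 23.5 and 24.2 RPKM, HES1 14.2 and 13.9 RPKM and JAG2 13.1 and 13.7 RPKM. Of the receptors, NOTCH2 measured 11.2 and 10.7 RPKM and NOTCH1 4.28 and 4.27 RPKM.

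Of 35 listed interferon and antigen presentation genes, 23 were at or above 1 RPKM, and the median of the 35 was 7.95 RPKM. The share was near the 65.8% of all listed genes and below the 78.0% of protein-coding genes. ISG15, a ubiquitin-like interferon target, measured 116 and 108 RPKM, OASL 44.8 and 48.4 RPKM and IFIT3 42.2 and 42.5 RPKM. Other interferon targets stayed low, MX1 at 0.340 and 0.230 RPKM and IFI27 at 0.0600 and 0.0500 RPKM. Of the class I chains, HLA-C measured 55.2 and 58.2 RPKM and HLA-B 8.37 and 8.58 RPKM, though these genes vary between genomes and share reads. B2M, their light chain, measured 90.2 and 92.4 RPKM. CIITA and HLA-DRA of class II measured at most 0.150 RPKM in either library. CD274, the ligand of PD-1, measured 13 and 12.2 RPKM. Of 23 inflammatory factors on the list, 17 were listed and 10 reached 1 RPKM. They were led by IL18 with 26.7 and 26.2 RPKM, CCL5 with 14.5 and 13.9 RPKM, LIF with 14.5 and 13.3 RPKM and IL6 with 6.31 and 6.34 RPKM. PTGS2 measured 0.110 RPKM in each library and TNF had 1 and 5 counts.

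Genes of germline and fetal programs were present at high level in a few members. MAGEA4, a cancer-testis antigen on the X chromosome, measured 120.5 and 119 RPKM, and MAGEA12 45.3 and 44.9 RPKM. MAGEA3 and MAGEA6, which are nearly identical in sequence, measured 30.4 and 30.8 RPKM and 31.2 and 29.6 RPKM, and how reads were split between them is not known. Of 21 cancer-testis genes on the list, 7 were listed and 4 reached 1 RPKM. The oncofetal list was added after values were seen. Beside H19, the chromatin protein gene HMGA1 measured 417 and 442 RPKM and the placental alkaline phosphatase ALPP 308 and 312 RPKM. IGF2BP2, an RNA-binding protein, measured 34.3 and 35.2 RPKM, while its paralog IGF2BP1 had a mean of 0.0250 RPKM. TERT, the telomerase catalytic subunit, measured 2.52 and 2.29 RPKM. IGF2, the gene reciprocally imprinted to H19, was not analysed here.

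Long noncoding RNAs, also a list added after values were seen, were led after H19 by ZFAS1, a snoRNA host, with 134 and 135 RPKM and GAS5 with 54.2 and 56.3 RPKM. LINC00958, SFTA1P and UCA1 had mean levels of 42.3, 39.6 and 38.4 RPKM. HOTAIR measured 0.300 and 0.270 RPKM. Of 746 listed genes annotated as long noncoding, 33.8% reached 1 RPKM, against 78.0% of 13097 protein-coding genes.

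Markers of other cell types were near the bottom of the profile. Of 100 markers in 9 lists, 41 were listed, with a median of 0.175 RPKM against 3.17 RPKM over all listed genes, and 5 reached 1 RPKM while 0 reached 10 RPKM. Their summed counts were 1480 and 1492. GATA6, a factor of gut and pancreas progenitors, was highest with 7.31 and 7.35 RPKM. MITF, the melanocyte factor that other cells also express, measured 2.60 RPKM in each library, CDH5 of endothelium 1.18 RPKM in each, and COL1A1 of fibroblasts 1.27 and 1.06 RPKM. Among 5 listed retina markers, the cone opsin gene OPN1SW measured 1.29 and 1.82 RPKM from 22 and 31 counts. The other retina genes NRL, GNAT2, ARR3 and PDE6A had mean levels of 0.420, 0.310, 0.205 and 0.0700 RPKM. CRX and RPE65, and the defining markers PTPRC of leukocytes, COL3A1 and DCN of fibroblasts and PECAM1 of endothelium, were not analysed here. The summed retina levels were 2.21 and 2.91 RPKM, beside 136 and 137 RPKM for the basal and hyperproliferative keratins.

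**Figure D4:**
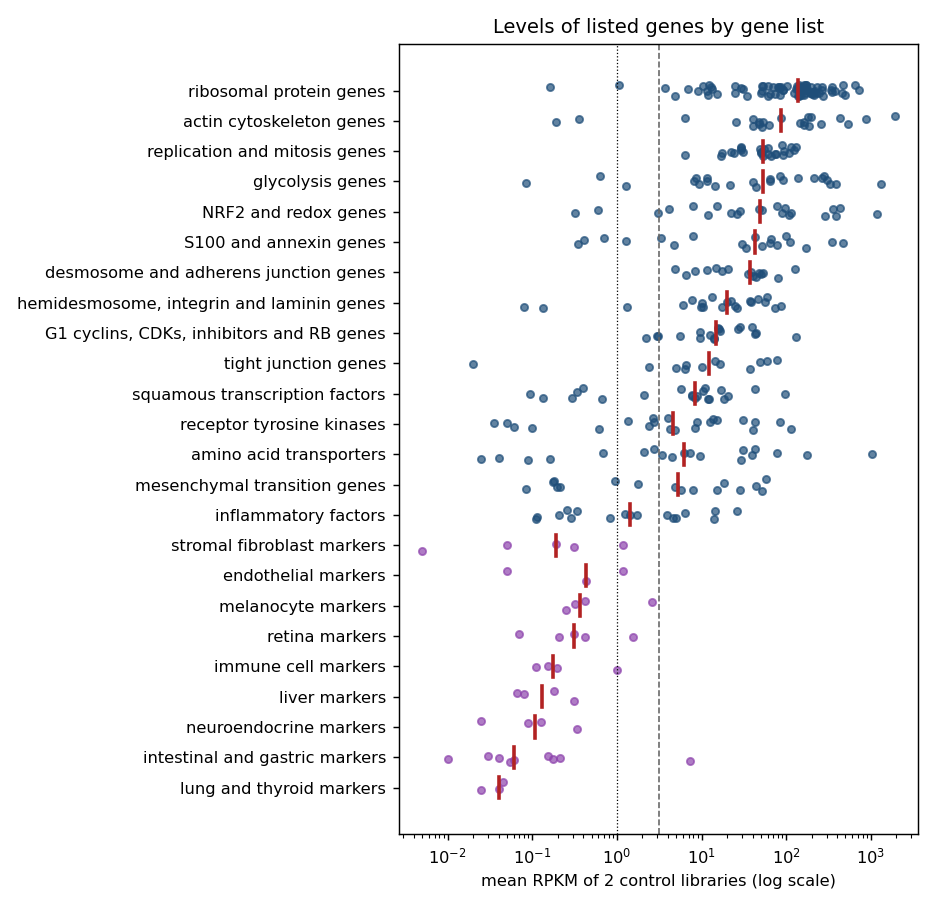
Mean RPKM of the 2 control libraries (log scale) for each listed gene of 24 gene lists, in blue for programs of the cell and in purple for markers of other cell types, with a red bar at each list's median, a dotted line at 1 RPKM and a dashed line at the median of all listed genes (3.17 RPKM). The 9 lists of other cell types have medians below 1 RPKM, while ribosomal protein genes have the highest median of the lists plotted, 138 RPKM, with the mitochondrially encoded genes (median 4837 RPKM) not plotted.

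Along the genome, protein-coding genes of chromosome 20 had the highest median level, 10.3 RPKM over 368 listed genes, against 5.96 RPKM over all 13097 protein-coding genes. Of its genes, 51.1% were at or above 10 RPKM, against 36.1% overall. The medians of replicate 1 and replicate 2 were 10.2 and 10.3 RPKM. The other chromosomes had medians of 4.40 RPKM for chromosome 4 to 7.22 RPKM for chromosome 9. The most abundant genes of chromosome 20 were RPS21 and PPDPF, followed by RPN2 at a mean of 193 RPKM, YWHAB and PIGT at 165 RPKM each and FKBP1A at 163 RPKM. Gene dosage was not measured here. On chromosome 11, the neighbours of CCND1 were uneven. CTTN, cortactin, measured 44.2 and 45.1 RPKM, PPFIA1 14.3 and 14 RPKM, MYEOV 11.4 and 12.2 RPKM and FADD 7.41 and 7.0 RPKM, whereas ANO1 had 4 and 5 counts.

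The 2 libraries resembled each other closely for genes of moderate level. The SD of the log2 ratio was 1.104 for genes under 0.1 RPKM, 0.279 from 1 to 10 RPKM, 0.084 from 10 to 100 RPKM and 0.055 from 100 to 1000 RPKM. Across 11718 genes of at least 1 RPKM with counts in both libraries, log2 RPKM values had a Pearson r of 0.9923 and a Spearman rho of 0.9940, as a description across genes that share depth and length. The chi-square of the counts was 1.5 per gene over all listed genes, and the counts of the libraries were not identical. It was 1.04 per gene from 0.1 to 1 RPKM and 41.2 per gene over 1000 RPKM, against a value near 1 for counting error alone. By the SD of the log2 ratio, KRT19 and ZNF750, with under 10 counts, fall where the spread was largest, and KRT5 where it was smallest. By the chi-square the order is the reverse for these classes, 1.07 per gene under 0.1 RPKM and 4.51 from 100 to 1000 RPKM. The wide ratios under 0.1 RPKM were thus near what counting error alone gives. The largest departures beyond counting error, among genes of at least 5 RPKM, were MT-ND2, MT-ND4, MT-RNR2, MT-ND4L and MT2A, with log2 ratios of replicate 2 over replicate 1 of 0.14, 0.06, -0.05, 0.13 and 0.13.

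Part of the spread followed transcript length. Among 226 protein-coding genes at or above 10 RPKM whose longest annotated transcript exceeds 8000 bases, 49 (21.7%) were higher in replicate 2, with a median log2 ratio of -0.057. Among 237 such genes under 1000 bases, 149 (62.9%) were higher in replicate 2, with a median of 0.029. The long genes AHNAK, HUWE1, PTPN14 and MKI67 were each lower in replicate 2, by log2 ratios of -0.14, -0.12, -0.12 and -0.12. RNA quality was not given for these libraries, and its part in this pattern was not tested.

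**Figure D5:**
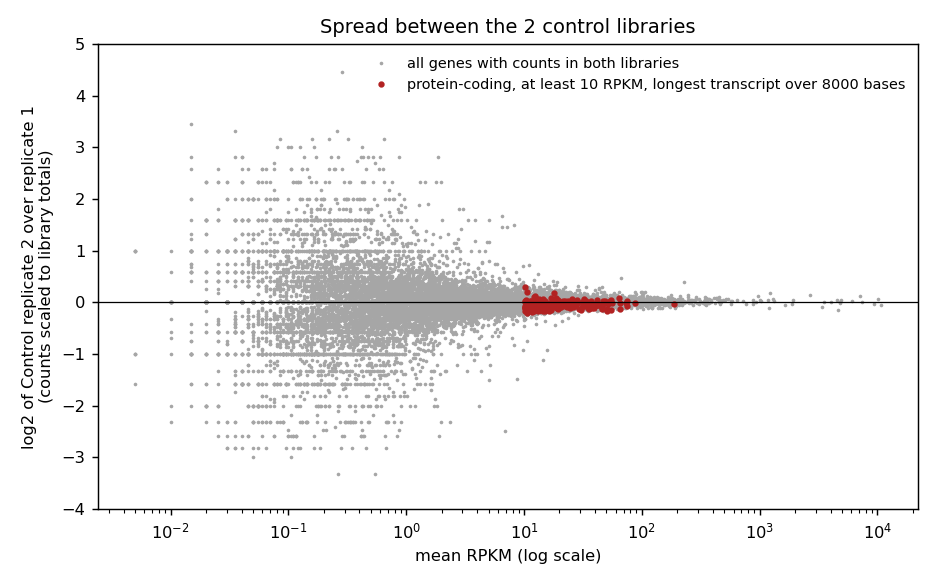
Log2 ratio of Control replicate 2 over replicate 1, with counts scaled to library totals, against mean RPKM (log scale) for genes with counts in both libraries, with long protein-coding genes at or above 10 RPKM in red. The cloud narrows from an SD of 1.104 under 0.1 RPKM to 0.084 between 10 and 100 RPKM, and the long genes lie mostly below 0.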

How the data were processed

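The authors deposited 1 table with whole-number counts per gene and library, and RPKM values per gene and library, per the file headers. The submitters' processing notes name RSEM 1.2.12, Bowtie2 2.2.5, HISAT2 2.0.4 and DESeq, and the build hg19, without their roles. Neither gene annotation nor strand use is stated in them, so genes that overlap on opposite strands may share reads. Every listed gene has at least 10 counts summed over the 4 libraries of the series, a filter made before deposit, and a gene without a row was not analysed here. The deposited RPKM of a gene equals its count divided by the library total and a length that was recovered from both columns. This implied length exceeded the longest GENCODE 29 basic transcript, by a median ratio of 1.33 over 10211 protein-coding genes and 2.27 over ribosomal protein genes, which lowers the deposited RPKM relative to that transcript's length.

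Means, SDs, percentiles, ratios and exact binomial intervals were computed with Python 3.11.15, pandas 2.3.3, numpy 2.4.6 and scipy 1.17.1, TMM factors with edgeR 4.0.16 in R 4.3.3, and figures with matplotlib 3.10.9. The spread calculation was tested on simulated data. Both libraries form 1 group, so no test between groups was run and no p-value is given. Names were matched to GENCODE 29 for 14856 of 17825 genes (83.3%), and promoters to RefSeq of GRCh38.p14 for 11164 genes. No coordinate of the deposited build is printed. A total of 42 rows share a name with another row.

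The 45 gene lists and the members were chosen with earlier results of these data known, and 8 more lists were added after the values were seen. Genes named were the 7 markers and CEBPG, the 25 highest genes, the 4 highest members of each list and the 5 genes of at least 5 RPKM with the largest chi-square between libraries. Of the 25 highest, several mitochondrial genes are given only in ranges. Some genes that this rule names are not reported here. Members named beyond these were chosen after their values were seen. Alternatives were other thresholds, TPM scaling, other lengths, TMM factors and leaving out each library.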

Additional observations from a re-analysis of the deposited data

How the results depend on the processing

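The number of genes at or above 1 RPKM was 11722, and 11728 to 11737 with either library left out. It ranged from 10160 at a threshold of 2 RPKM to 14350 after TPM scaling. All 7 squamous markers stayed at or above the threshold under each of these alternatives. Members of the 45 lists at or above 1 RPKM numbered 558, and 533 to 603 under the alternatives. The 5 markers of other cell types at or above 1 RPKM became 2 at a threshold of 2 RPKM, 10 after TPM scaling and 17 when at least 10 counts in both libraries were asked for, and 5 to 6 with either library left out. The share of the 10 genes with the most counts, 8.17% of counts on average, was 22.0% of summed RPKM for the highest genes by RPKM and 3.78% with mitochondrial genes left out, an alternative chosen after seeing the data. It was 8.13% to 8.21% with either library alone. The SD of the log2 ratio, 0.220 with library totals and with TMM factors, was 0.0828 for genes of at least 10 RPKM and 0.539 for all genes with counts in both libraries. With the longest GENCODE transcript as the length, also chosen after seeing the data, 2 of 219 named genes moved by more than 10 percentile points. Without length scaling 37 did, CCL5 the most, to the 56.4 percentile from the 79.6 percentile. No paired analysis was possible because the results come from 1 group and no test. At this depth a level under 0.1 RPKM rests on few counts.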

Other observations

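At the cell surface, BSG, a chaperone of lactate transporters, measured 162 and 168 RPKM and the transferrin receptor TFRC 83.6 and 78.4 RPKM. CD276, an immune checkpoint ligand, measured 21.9 and 24.2 RPKM. MSLN and MUC16 measured at most 0.560 RPKM in either library. Among secreted factors, the growth factor midkine MDK measured 256 and 264 RPKM and the galectin LGALS1 182 and 180.3 RPKM. IGFBP6 measured 72.0 and 71.9 RPKM, the WNT antagonist DKK1 47.6 and 52.4 RPKM, and VEGFB 59.0 and 65.0 RPKM, whereas VEGFA measured 3.83 and 3.74 RPKM.

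The tubulin TUBB measured 579 and 589 RPKM and TUBB4B 365 and 382 RPKM, against 85.6 and 86.7 RPKM for the highest alpha-tubulin, TUBA1B, a ratio of TUBB over TUBA1B of 6.76 and 6.80. The implied lengths were 3361 bases for TUBB and 3576 bases for TUBA1B, against longest transcripts of 2903 and 1627 bases. The size of this ratio thus depends on the length used. Tubulin genes are close in sequence, and how shared reads were placed is not known. Of 18 chaperone and 14-3-3 genes, all were at or above 1 RPKM and 9 at or above 100 RPKM. HSPB1, a small heat shock protein of epithelial cells, measured 503 and 525 RPKM, HSP90AB1 467 and 469.5 RPKM and SFN, the 14-3-3 protein of squamous cells, 280.4 and 301 RPKM. The stress-induced HSPA1A measured 2.96 and 2.97 RPKM and HSPA1B 13.1 and 11.1 RPKM, a pair that shares most of its sequence. Among genes often used as references, TBP measured 18.6 and 18.1 RPKM and POLR2A 88.7 and 89.5 RPKM.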
